A study of Homo sapiens with 6 samples.

Results

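The early response genes described here are 10 genes taken by name: the zinc finger factors EGR1, EGR2 and EGR3, the Krüppel-like factors KLF2, KLF4 and KLF6, the immediate early response genes IER2 and IER3, the orphan nuclear receptor NR4A1 and the proto-oncogene MYC. Each had 1 row in the deposited table of 58735 genes, and all 10 passed the filter on low counts. RNA came from MDA-MB-231, a long-established human line derived from a triple-negative breast tumour, which lacks oestrogen receptor, progesterone receptor and HER2 amplification. The libraries fall into 3 labelled PM2.5, from cells exposed to fine airborne particulate matter, and 3 labelled Control, and RNA was taken at 48 h of exposure. The labels give no particle dose, no control vehicle and no batch. The design text calls the 3 libraries of a group biological replicates but does not say how separate the cultures were, so p-values measure the spread between these libraries, and 1 cell line cannot speak for the subtype.

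Immediate early genes are switched on within minutes of a growth factor, stress or damage signal and need no new protein synthesis for it. Signalling through RAS and ERK reaches them through the serum response factor SRF and its ETS partners, through CREB, or through ERK5 and MEF2, and their short-lived messages carry AU-rich elements that mark them for decay. Most encode transcription factors, so that they pass a brief signal on to slower programmes of growth, survival and differentiation. Samples taken at 48 h show the level these genes held long after the first exposure, not the initial burst.

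Upstream windows of 250 bases were available from RefSeq (GRCh38.p14) for 7 of the 10 members, in 10 windows. They were searched on both strands for the CArG box bound by SRF, the MEF2 site, the short CREB site TGACG, the MYC-type E-box CACGTG, the GC-box GGGCGG read by SP and Krüppel-like factors, and the EGR site GCGNGGGCG, which can overlap a GC-box. The windows of the gene that fell most, EGR1, and of the 3 Krüppel-like factors that rose are shown 5′ to 3′, ending at the base before the start or before the first annotated exon base. In EGR1 the capitals mark CArG boxes and TGACG sites, in KLF2 the MEF2 site and GC-boxes, in KLF4 TGACG sites, GC-boxes and the E-box, and in KLF6 a GC-box and the E-box, on either strand. The windows are chr5:138465229-138465478 on the plus strand for EGR1, chr19:16324576-16324816 on the plus strand for KLF2, chr9:107489770-107490019 on the minus strand for KLF4 and chr10:3785282-3785459 on the minus strand for KLF6. The starts are those of the RefSeq windows and can differ from the ends of the gene spans given below. The KLF4 window, the EGR2 windows and the second NR4A1 window lie inside those spans.
EGR1: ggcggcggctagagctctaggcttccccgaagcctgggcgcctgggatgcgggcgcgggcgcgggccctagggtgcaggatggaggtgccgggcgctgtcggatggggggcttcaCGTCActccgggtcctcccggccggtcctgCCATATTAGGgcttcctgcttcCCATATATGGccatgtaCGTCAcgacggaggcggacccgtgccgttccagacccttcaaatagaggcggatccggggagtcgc
KLF2: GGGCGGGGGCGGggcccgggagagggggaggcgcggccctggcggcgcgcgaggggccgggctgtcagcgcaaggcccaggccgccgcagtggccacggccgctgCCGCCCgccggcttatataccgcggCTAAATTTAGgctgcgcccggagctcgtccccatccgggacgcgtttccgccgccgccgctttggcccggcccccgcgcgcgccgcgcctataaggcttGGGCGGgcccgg
KLF4: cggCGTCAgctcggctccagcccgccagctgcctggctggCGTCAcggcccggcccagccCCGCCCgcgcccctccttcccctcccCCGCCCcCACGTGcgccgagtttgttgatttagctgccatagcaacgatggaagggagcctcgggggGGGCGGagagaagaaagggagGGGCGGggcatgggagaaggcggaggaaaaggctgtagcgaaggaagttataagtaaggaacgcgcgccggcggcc
KLF6: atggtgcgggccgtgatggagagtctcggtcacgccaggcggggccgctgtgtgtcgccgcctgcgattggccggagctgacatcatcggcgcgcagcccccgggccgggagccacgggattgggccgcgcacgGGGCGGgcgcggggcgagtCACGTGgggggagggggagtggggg

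EGR1 held 2 CArG boxes, at 105 to 96 and at 83 to 74 bases before its start, where 1.16% of all 35116 windows hold at least 1. The only other CArG box among the members' windows was in the third window of EGR2, at 71 to 62 bases before the start. KLF2 held the only MEF2 site, at 120 to 111 bases before the start, a motif found in 0.515% of all windows. TGACG was more common, with 2 in EGR1, 2 in the third EGR2 window, 2 in KLF4 and 1 in IER2, against 21.2% of all windows with any. KLF4, KLF6 and the second EGR2 window each held 1 E-box (6.34% of all windows). KLF2, KLF4 and KLF6 held 4, 4 and 2 GC-boxes in their full windows (42.6% of all windows have any). GC-boxes also lay in IER2 (3), in the first and second EGR2 windows (2 and 4) and in the second NR4A1 window (1). The EGR site occurred once in each of EGR1, KLF2, KLF4 and KLF6, against 8.41% of all windows. These are matches of letters and no measure of binding. IER3, EGR3 and MYC are described by their counts only.

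Total counts were 32187965 to 34691009 in the PM2.5 libraries and 31846136 to 33495707 in the Control libraries. HMOX1 and CYP1A1, which particulate matter is known to induce, went against the labels: HMOX1 stood at 51.3 ± 6.0 CPM (counts relative to the scaled size of the library) in the libraries labelled PM2.5 and 813 ± 58.3 CPM in those labelled Control, and CYP1A1 at 2.73 ± 0.65 and 6.29 ± 1.73 CPM (SD, n = 3 each). All directions below are therefore for the libraries as labelled. MKI67, a proliferation marker, stood at 158 ± 13.7 CPM in PM2.5 and 23.7 ± 2.57 CPM in Control (SD, n = 3 each; adjusted p = 6.47e-11, edgeR), and its part in the results was not tested. Control replicate 3 stood apart on the second principal component, at 42.5 against -14.5 to 8.77 in the PM2.5 libraries and -18.9 and -15.8 in the other Control libraries. Of the markers of the line, VIM and CD44 were measured throughout and not called, while FN1 and SPARC were higher in PM2.5 by 1.20 and 2.26 on the log2 scale. Of the markers that the line should lack, ESR1 had 0 counts, PGR, CDH1 and FOXA1 were too low to test, and GATA3 was present at 4.04 CPM in PM2.5 and 5.85 CPM in Control (log2 change -0.53, adjusted p = 0.0429, edgeR), a call lost in 8 of 14 alternatives. Summed marker levels of leukocytes were 1.54 to 2.25 CPM in PM2.5 and 0.38 to 0.82 CPM in Control, with PTPRC and CD3E at 0 counts. Endothelial markers summed to 54.3 to 58.8 CPM in PM2.5 and 39.8 to 52.7 CPM in Control, where PECAM1 alone averaged 55.2 and 43.8 CPM, and fibroblast markers to 27.4 to 31.1 and 24.8 to 31.0 CPM, with DCN and LUM at 0 counts. Of these lists 1 of 5, 3 of 4 and 3 of 5 genes were tested, and LYZ, PECAM1 and COL1A2 were called higher. The PECAM1 call was lost in 4 of 14 alternatives. LYZ and COL1A2 were low, with at most 66 and 22 counts in a PM2.5 library and 14 and 2 in a Control library. The part of these markers in the results was not tested. In bulk RNA a change in the share of cells that express a gene and a change in RNA per cell cannot be told apart.

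The early response genes did not move as a block. In the libraries labelled PM2.5, EGR3, KLF2, KLF4 and KLF6 were higher and EGR1 and IER3 were lower, while EGR2, IER2, NR4A1 and MYC did not pass the test. Changes were modest, from a 2.10-fold rise of EGR3 to a 1.44-fold fall of EGR1. A gene is called here at an adjusted p under 0.05 in the quasi-likelihood test of edgeR, adjusted by Benjamini-Hochberg over all 14975 tested genes. By that rule 31.9% of all tested genes were called, 16.1% of them higher and 15.8% lower, as shares of the tested genes, and 38.4% of the genes with a mean of at least 5 CPM. Of the members 4 of 10 were called higher and 2 of 10 lower. With 10 genes taken by name, and with earlier results of these data known, these counts are a description. The groups did not overlap for the same 6 members and overlapped for the other 4, where 44.3% of tested genes did not overlap, 21.4% with PM2.5 higher and 22.9% with PM2.5 lower. The median log2 fold change of the members was 0.17, against -0.01 over all tested genes. That median was 0.027 without Control replicate 3 and 0.29 without Control replicate 2.

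**Figure D1:**
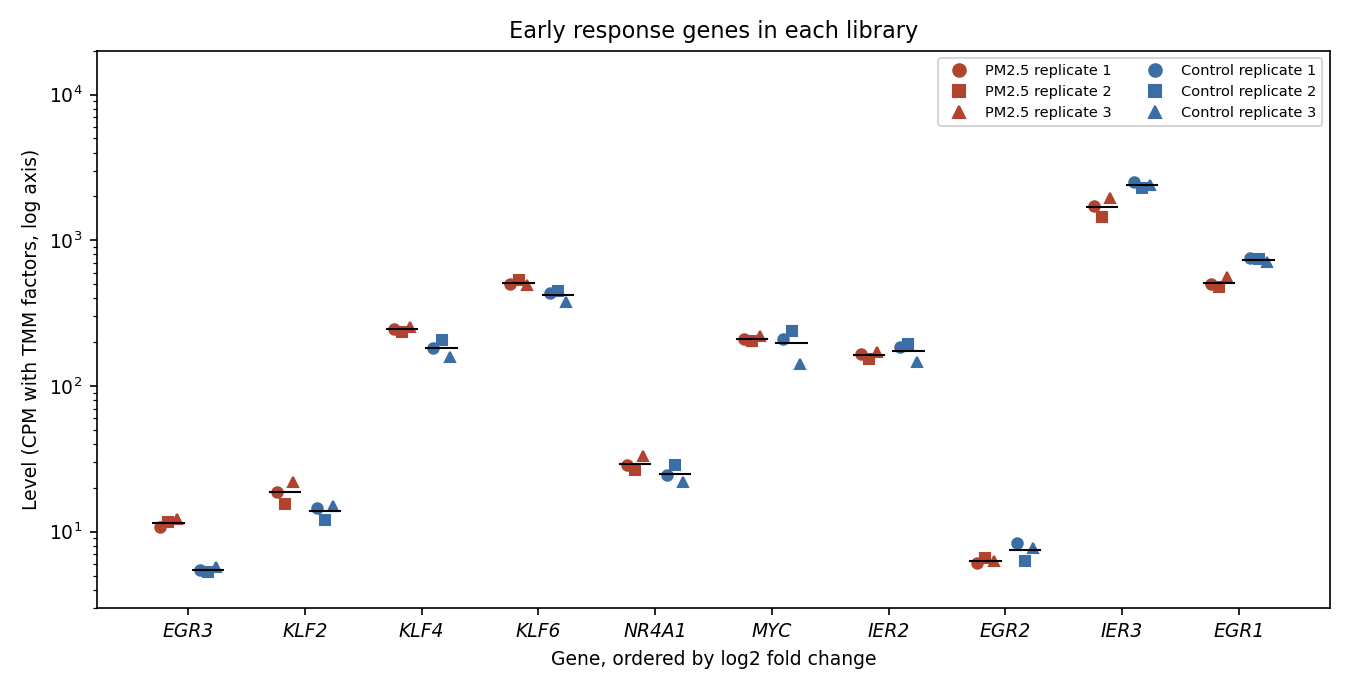
Level of each early response gene in every library, in CPM with TMM factors on a log axis, with PM2.5 libraries in red to the left of Control libraries in blue and a line at each group mean (n = 3). The groups are apart for EGR3, KLF2, KLF4, KLF6, IER3 and EGR1, and Control replicate 3 lies lowest in its group for MYC at 142 CPM.

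The EGR factors share a DNA-binding domain of zinc fingers. EGR1 fell and EGR3 rose in PM2.5, and EGR2 did not pass the test. EGR1 links growth factor and stress signals to repair, growth and survival genes. The gene (ENSG00000120738) spans bases 138465490 to 138469315 of the plus strand of chromosome 5 in GRCh38. It had 499.6, 474 and 557 CPM in PM2.5 replicates 1 to 3, against 753, 739 and 713 CPM in Control replicates 1 to 3. Every PM2.5 library lay below every Control library, and the Control libraries lay close together. The means were 510.4 ± 42.4 CPM in PM2.5 and 735 ± 20.1 CPM in Control (SD, n = 3 each). On the log2 scale the change was -0.53 ± 0.10 (SE, as for every ± beside a log2 change; adjusted p = 0.000677, edgeR), a 1.44-fold fall. The call held in all 14 alternatives tried, with log2 changes of -0.59 to -0.46.

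EGR3, known for its roles in muscle spindle formation and in lymphocyte responses, spans 22687659 to 22693302 on the minus strand of chromosome 8 (ENSG00000179388). Its levels were 10.7, 11.6 and 12.2 CPM in the PM2.5 libraries, against 5.42, 5.31 and 5.71 CPM in the Control libraries. The groups were far apart beside their spread, with means of 11.5 ± 0.77 CPM in PM2.5 and 5.48 ± 0.20 CPM in Control (SD, n = 3 each). This gave a log2 fold change of 1.07 ± 0.15 (SE, adjusted p = 5.72e-05, edgeR), the largest of the 10. Of all tested genes 7.83% had a larger change in either direction. The call held in all 14 alternatives, at 1.03 to 1.13.

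EGR2, a regulator of hindbrain patterning and of myelination, spans 62811996 to 62919900 on the minus strand of chromosome 10 (ENSG00000122877). It had 6.08, 6.58 and 6.30 CPM in the PM2.5 libraries and 8.30, 6.33 and 7.73 CPM in the Control libraries. Control replicate 2 fell among the PM2.5 libraries. Fitted over the 6 libraries, the log2 fold change was -0.24 ± 0.17 (SE), with a 95% interval of -0.59 to 0.11 and an adjusted p of 0.298 in edgeR. EGR4, the remaining family member, was too low to test, with at most 9 counts in a PM2.5 library and 13 in a Control library.

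A ratio within a library does not depend on how libraries are scaled. Levels per gene length, in TPM, were therefore summed over EGR1, EGR2 and EGR3 in each library. EGR3 made up 1.35%, 1.54% and 1.39% of that sum in PM2.5 replicates 1 to 3 and 0.459%, 0.459% and 0.51% in Control replicates 1 to 3. EGR1 made up 97.5% ± 0.20 in PM2.5 and 98.7% ± 0.13 in Control (SD, n = 3 each), so it dominated the family in both groups. EGR2 made up 1.03% ± 0.11 in PM2.5 and 0.851% ± 0.11 in Control (SD, n = 3 each), although its own level was not called. The shares of EGR1, EGR2 and EGR3 each did not overlap between the groups, with p = 0.1 for each by an exact two-sided permutation test. EGR1 held nearly all of the sum, so these shares are not independent of each other. That p is the smallest that 3 against 3 libraries can give, so none of the 6 shares tested in the EGR and KLF families could pass a threshold of 0.05.

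**Figure D2:**
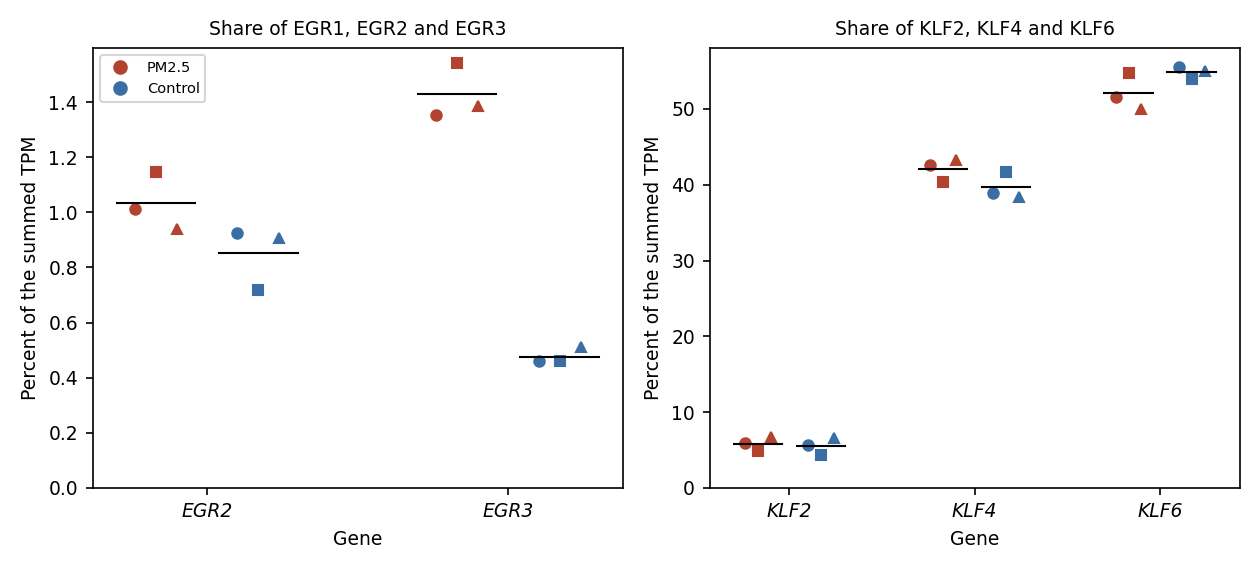
Share of each gene in the summed TPM of its family within each library, for EGR2 and EGR3 in the left panel and KLF2, KLF4 and KLF6 in the right panel, with PM2.5 in red left of Control in blue, circles, squares and triangles for replicates 1 to 3, and a line at each mean (n = 3). The EGR3 share was 1.43% ± 0.10 in PM2.5 and 0.476% ± 0.03 in Control. The EGR2 share was 1.03% ± 0.11 and 0.851% ± 0.11. Neither overlapped between the groups, while the shares of the 3 KLF genes did.

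Every Krüppel-like factor among the members was higher in PM2.5. KLF4, a factor of epithelial differentiation and of pluripotency, spans 107484852 to 107490482 on the minus strand of chromosome 9 (ENSG00000136826). It had 246, 234 and 255 CPM in the PM2.5 libraries, against 181, 206 and 158 CPM in the Control libraries. All PM2.5 libraries lay above the highest Control library, replicate 2. The log2 fold change was 0.43 ± 0.10 (SE, adjusted p = 0.00489, edgeR), a 1.35-fold rise between means of 245 ± 10.5 CPM in PM2.5 and 182 ± 24.0 CPM in Control (SD, n = 3 each). It was called in all 14 alternatives, at 0.34 without Control replicate 3 to 0.53 without Control replicate 2.

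KLF2, best known from endothelial cells under flow and from resting T cells, spans 16324817 to 16327874 on the plus strand of chromosome 19 (ENSG00000127528). Its levels were 18.8, 15.4 and 21.8 CPM in the PM2.5 libraries and 14.5, 11.9 and 14.9 CPM in the Control libraries. The groups were separate, but only narrowly: PM2.5 replicate 2 stood just above Control replicate 3. The log2 fold change of 0.44 ± 0.15 (SE, adjusted p = 0.0321, edgeR) was lost without PM2.5 replicate 1 (adjusted p = 0.0832), PM2.5 replicate 3 (0.131), Control replicate 1 (0.0511) or Control replicate 2 (0.145) in edgeR, over alternatives from 0.31 to 0.56.

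KLF6, a widely expressed factor studied as a tumour suppressor, spans 3775996 to 3785281 on the minus strand of chromosome 10 (ENSG00000067082). It had 501, 532 and 494 CPM in the PM2.5 libraries, against 435, 446 and 379.7 CPM in the Control libraries. The PM2.5 libraries were all higher, and Control replicate 3 was the lowest library. The log2 fold change of 0.28 ± 0.10 (SE, adjusted p = 0.0389, edgeR) lost its call in 8 of 14 alternatives, which included leaving out each library but Control replicate 3, and the adjusted p reached 0.124 in edgeR. Its direction was the same in all of them, from 0.21 to 0.32. Within the summed TPM of the 3 KLF genes, KLF6 held 52.1% ± 2.43 in PM2.5 and 54.8% ± 0.84 in Control and KLF4 held 42.1% ± 1.49 and 39.6% ± 1.81 (SD, n = 3 each), with p = 0.2 for each and p = 0.7 for KLF2 by the exact two-sided permutation test.

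IER3, a stress-inducible gene whose product modulates apoptosis and ERK signalling, was the most abundant member and fell. It spans 30743199 to 30744554 on the minus strand of chromosome 6 (ENSG00000137331). Levels were 1707, 1435 and 1951 CPM in the PM2.5 libraries, against 2529.7, 2278 and 2399 CPM in the Control libraries. Both groups were separate, with the widest spread among the PM2.5 libraries, where replicate 2 was lowest. The means were 1698 ± 258 CPM in PM2.5 and 2402 ± 126 CPM in Control (SD, n = 3 each). On the log2 scale the change was -0.50 ± 0.12 (SE, adjusted p = 0.00422, edgeR), and the call held in all 14 alternatives, from -0.61 to -0.39.

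IER2, a small nuclear protein linked to cell motility, spans 13150415 to 13154908 on the plus strand of chromosome 19 (ENSG00000160888). It had 166, 154 and 170.3 CPM in the PM2.5 libraries and 186, 193 and 145 CPM in the Control libraries. Control replicate 3 was the lowest of all 6 libraries, and the other Control libraries were the highest. This gave a log2 fold change of -0.09 ± 0.11 (SE, 95% interval -0.32 to 0.14, adjusted p = 0.543, edgeR). Without Control replicate 3 it was -0.21 and was called (adjusted p = 0.0469 in edgeR). Exons of antisense genes cover 26.5% of the exonic bases of IER3, 30.8% of IER2, 10.3% of NR4A1 and 3.38% of EGR3. No source used here gives the strand setting of the counting. The antisense partners held at most 11 counts in any PM2.5 library and 14 in any Control library. These counts do not tell how many reads over the shared bases were left out of the members.

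NR4A1, also called Nur77, is an orphan nuclear receptor induced by growth factors and stress (ENSG00000123358, plus strand of chromosome 12, bases 52022832 to 52059507). It had 28.6, 26.4 and 32.9 CPM in the PM2.5 libraries and 24.3, 28.7 and 21.98 CPM in the Control libraries. Control replicate 2 lay between the PM2.5 libraries. The log2 fold change of 0.23 ± 0.13 (SE, 95% interval -0.04 to 0.50) did not pass the test (adjusted p = 0.179, edgeR).

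MYC, which drives ribosome production, metabolism and cell growth, spans 127735434 to 127741434 on the plus strand of chromosome 8 (ENSG00000136997). Levels were 212, 203 and 219 CPM in the PM2.5 libraries and 209, 239 and 142 CPM in the Control libraries. The PM2.5 libraries were close together, and the Control libraries spread to both sides of them. Fitted over the 6 libraries, the log2 fold change was 0.10 ± 0.14 (SE, 95% interval -0.19 to 0.40, adjusted p = 0.608, edgeR). Without Control replicate 3 the sign turned to -0.089 and the gene was again not called (adjusted p = 0.429). MYC varied more among the Control libraries, with a coefficient of variation of 25.3%, than any other member in either group, and its coefficient among the PM2.5 libraries was 3.91%.

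**Figure D3:**
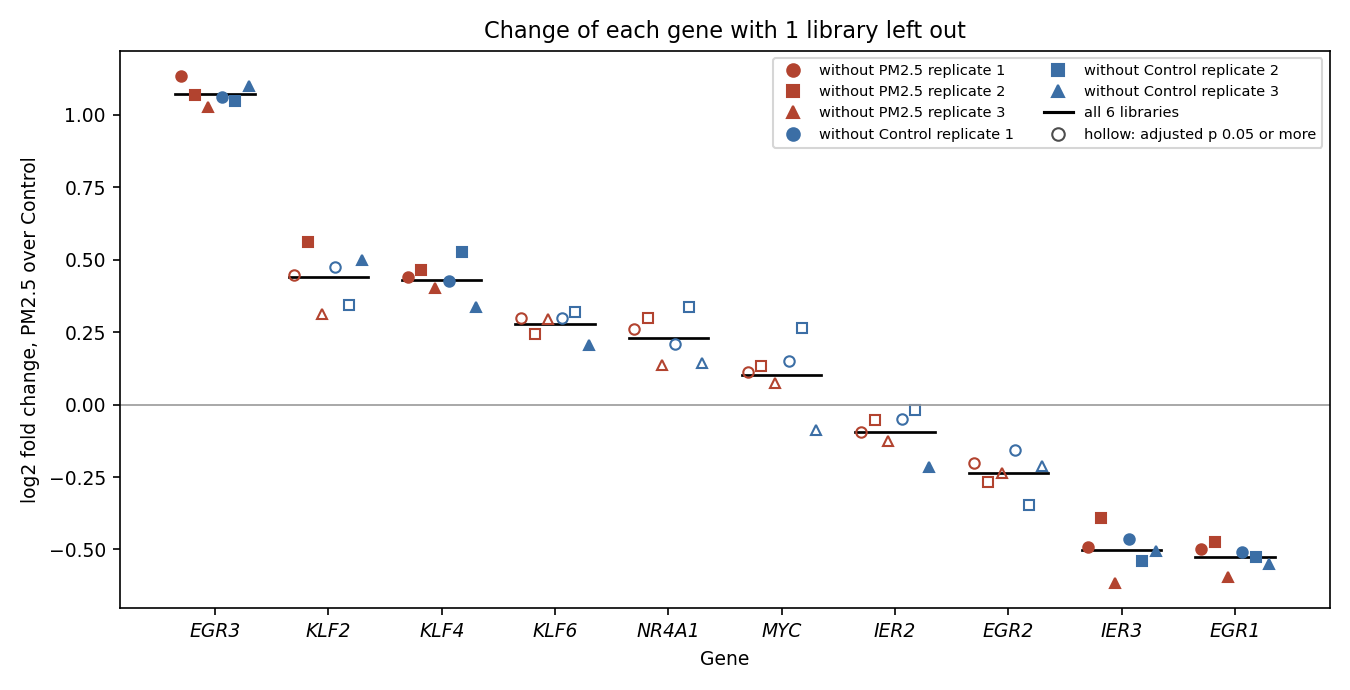
Log2 fold change of each early response gene, PM2.5 over Control, with all 6 libraries (line) and with each library left out (points: red without a PM2.5 library, blue without a Control library, circles, squares and triangles for replicates 1 to 3, filled where the adjusted p is under 0.05 and hollow otherwise). EGR3, KLF4, IER3 and EGR1 are filled throughout, KLF2 and KLF6 are hollow in 4 and 5 of the 6 fits, and MYC crosses 0 without Control replicate 3.

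Single libraries carried part of the spread in several members at the same time. PM2.5 replicate 2 was the lowest PM2.5 library for 7 of the 10 genes, and PM2.5 replicate 3 was the highest for 8 of them. Control replicate 3 was the lowest Control library for 6 genes and the highest for 2. The same counts were not taken over all tested genes, so whether they are particular to the members was not tested. Mitochondrial transcripts took 2.68% to 2.78% of counts in the PM2.5 libraries and 3.05% to 3.47% in the Control libraries, with the highest share in Control replicate 3; their part in these results was not tested.

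The members ranged from EGR3, above 40.6% of the tested genes per length, to IER3, above 99.9% of them. Per length, IER3 stood at 4443 ± 538 TPM in PM2.5 and 5618 ± 457 TPM in Control, and EGR1 followed at 578 ± 32.0 and 742 ± 31.6 TPM (SD, n = 3 each). EGR1 lay above 98.6% of the tested genes. In the PM2.5 libraries the order went on with KLF6, MYC, KLF4, IER2, KLF2, NR4A1, EGR3 and EGR2, and no neighbours in it overlapped over the libraries. In the Control libraries KLF6, MYC, IER2 and KLF4 overlapped with their neighbours in that order, and the last places were turned round, with EGR2 at 6.41 ± 1.02 TPM above EGR3 at 3.59 ± 0.38 TPM. In PM2.5 those levels were 6.10 ± 0.42 TPM for EGR2 and 8.46 ± 0.59 TPM for EGR3. TPM values were used to order genes within a group and for shares within a library, not to compare levels between the groups.

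Of 20 close relatives of the members 16 were tested, and 3 rose and 2 fell, a share near the 31.9% called among all tested genes. NR4A2, a nuclear receptor of the same subfamily as NR4A1, rose the most, with 18.0 ± 1.84 CPM in PM2.5 and 6.99 ± 1.31 CPM in Control (SD, n = 3 each; log2 change 1.36 ± 0.16, adjusted p = 8.28e-06, edgeR). The third member of that subfamily, NR4A3, had 5.29 ± 1.34 CPM in PM2.5 and 5.48 ± 0.75 CPM in Control and did not pass the test. KLF10, a TGF-beta inducible gene, rose by 0.49 ± 0.09 on the log2 scale and KLF3, a transcriptional repressor, by 0.38 ± 0.10. KLF15, a metabolic regulator, fell to 2.72 ± 0.06 CPM in PM2.5, against 6.09 ± 1.27 CPM in Control. IER5L fell as well, to 12.6 ± 2.65 CPM in PM2.5, against 21.9 ± 1.93 CPM in Control. Its relative IER5 had 304 ± 18.7 CPM in PM2.5 and 275 ± 43.9 CPM in Control and was not called. With trends on gene length and GC content removed the KLF3 call was lost (adjusted p = 0.116, edgeR) and 4 relatives fell. Exons of other genes cover 39.2% of the exonic bases of IER5L.

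The remaining relatives that were tested were not called. KLF9 and KLF7 had log2 changes of 0.27 ± 0.11 and -0.26 ± 0.11 (SE), and KLF5, KLF8, KLF11, KLF12, KLF13 and KLF16 lay between -0.12 and 0.07. WT1, whose zinc fingers resemble those of the EGR factors, averaged 0.55 CPM in PM2.5 and 0.27 CPM in Control and was not called. KLF1, KLF14 and KLF17 were too low to test, with at most 13 counts in any library.

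**Figure D4:**
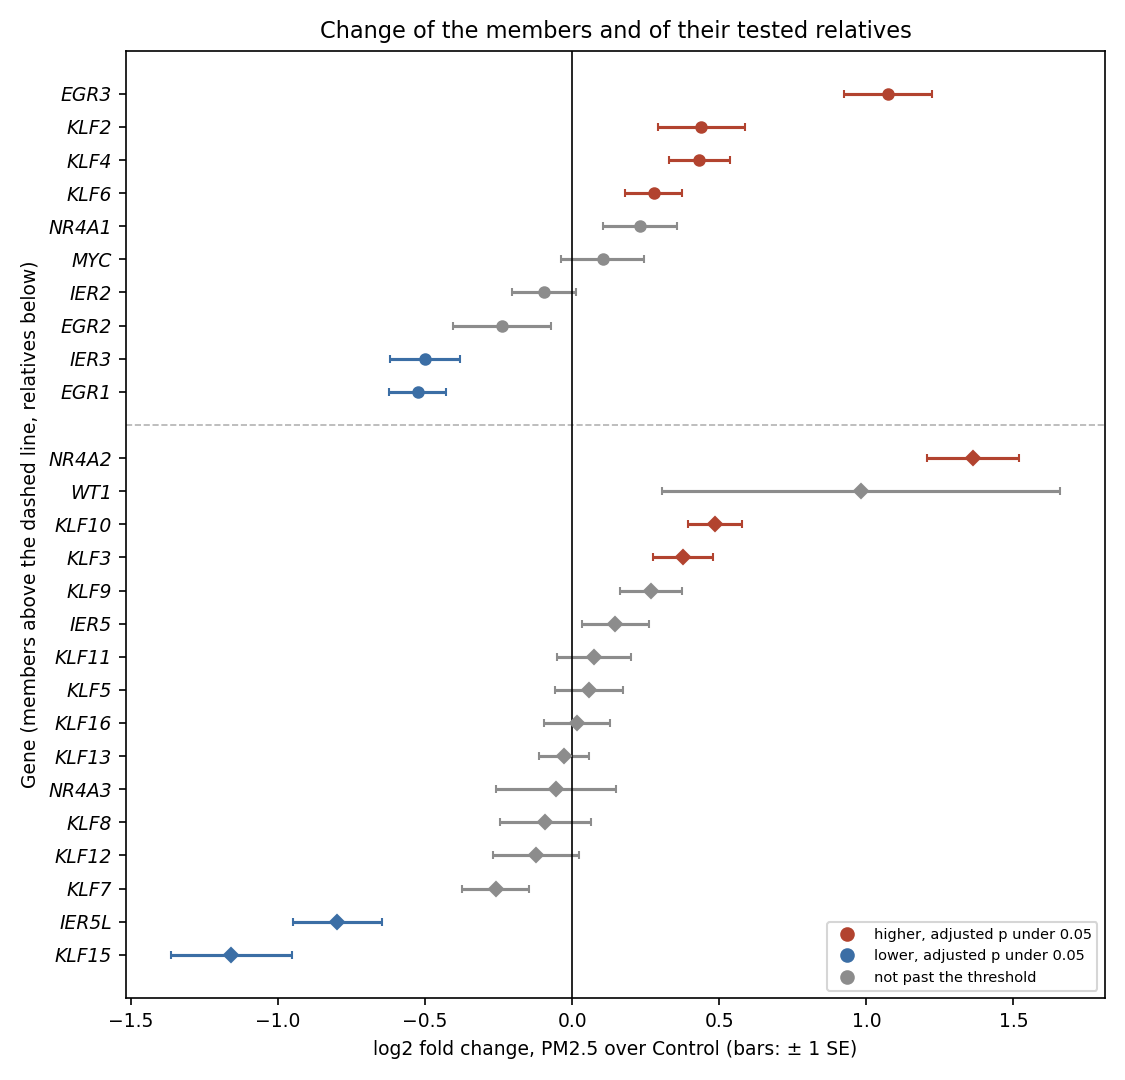
Log2 fold change with its SE for the 10 members (circles, above the dashed line) and their 16 tested relatives (diamonds, below), PM2.5 over Control, coloured by whether the adjusted p is under 0.05. Among the relatives NR4A2, KLF10 and KLF3 lie to the right and IER5L and KLF15 to the left.

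Other early response genes also moved in both directions. Of 27 tested 7 rose and 6 fell, and their median log2 change was 0.08. Among all tested genes 16.1% were called higher and 15.8% lower. Without PM2.5 replicate 1 the counts were 3 and 1, and without PM2.5 replicate 3 there were 3 rises. The matricellular gene CTGF rose by 2.60 ± 0.11 on the log2 scale, the AP-1 subunit FOSB by 1.01 ± 0.14 and the NF-kB cofactor NFKBIZ by 0.49 ± 0.09. The salt-inducible kinase SIK1 fell by 0.90 ± 0.21 on that scale. FOS, the gene most often read as a marker of early induction, had 13.5 CPM in PM2.5 and 16.0 CPM in Control on average and was not called; JUN was not called either, at 197 and 203 CPM.

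The genes that carry the signal to these promoters were counted in 3 lists, to be read beside the 31.9% of all tested genes that were called. Among SRF, its ETS and MRTF partners, CREB factors and their kinases 1 of 14 tested was called, the kinase RPS6KA3, which rose by 0.40 ± 0.12 on the log2 scale, a call lost in 5 of 14 alternatives (highest adjusted p = 0.119, edgeR). The count depended on the fit: DESeq2 called 3 genes of this list higher and 1 lower, and the stricter filter on low counts gave 3 higher. With trends on gene length and GC content removed 1 rose and 3 fell, and with 1 library left out 0 to 3 rose and 0 to 1 fell. SRF itself had a log2 change of 0.04 ± 0.09 (SE) and was not called. In the RAS to ERK cascade 1 of 14 rose and 2 fell: MAP2K1 (MEK1) rose by 0.31 ± 0.09, and ARAF and MAPK3 (ERK1) fell by 0.42 ± 0.11 and 0.32 ± 0.10 on the log2 scale. With 1 library left out the cascade had 0 rises (without PM2.5 replicate 1 or Control replicate 1) to 2 rises (without PM2.5 or Control replicate 3). Its falls went down to 0 without PM2.5 replicate 1 and up to 4 without Control replicate 3. Of 7 tested ERK5 and MEF2 genes only MAP2K5, the kinase above ERK5, was called, with a fall of 0.42 ± 0.14. The calls of MAPK3 and MAP2K5 were each lost in 5 of 14 alternatives, those of MAP2K1 in 2 and that of ARAF in 1, with the highest adjusted p at 0.158 in edgeR.

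Corepressors and known targets of the EGR factors gave 4 rises and 2 falls among 10 tested. Over all tested genes the shares called were 16.1% higher and 15.8% lower, and with 10 genes these counts are a description. NAB2, which EGR1 induces and which binds and represses it, fell to 97.8 ± 5.63 CPM in PM2.5, against 137 ± 3.08 CPM in Control (SD, n = 3 each; log2 change -0.49 ± 0.09, adjusted p = 0.000664, edgeR). Its paralog NAB1 had a log2 change of 0.11 ± 0.12 (SE) and was not called. The prostaglandin E synthase PTGES fell by 1.46 ± 0.10 on the log2 scale, while thrombospondin THBS1 and the growth factor PDGFB rose by 1.07 ± 0.10 and 1.01 ± 0.17. All 4 of these calls held in the 14 alternatives tried.

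Partners and antagonists of MYC gave 3 rises and 2 falls among 12 tested, with 1 rise without Control replicate 1 and 1 fall without each library except Control replicate 3. For this list and the MYC targets below, the shares called over all tested genes were 16.1% higher and 15.8% lower. MXD3, a MAX partner that opposes MYC, rose by 2.65 ± 0.18 on the log2 scale, to 21.4 ± 2.0 CPM in PM2.5, against 3.43 ± 0.94 CPM in Control, though exons of other genes cover 40.4% of its exonic bases. The paralog MYCL fell by 1.20 ± 0.26 and the antagonists MXI1 and MXD1 rose by 0.32 ± 0.09 and 0.35 ± 0.12, calls lost in 3 and 4 of 14 alternatives. MAX itself was not called (0.17 ± 0.09, SE), and MYCN had 0 counts. Of 28 tested MYC target genes 4 rose, 3 fell and 21 were not called, with a median log2 change of 0.01. The polyamine enzyme ODC1 fell by 1.34 ± 0.12 on the log2 scale, the nucleolar gene MYBBP1A by 0.46 ± 0.10 and CDK4 by 0.39 ± 0.10, and lactate dehydrogenase LDHA rose by 0.69 ± 0.11. Exons of other genes cover 43.2% of the exonic bases of CDK4.

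Factors that bind AU-rich elements or shorten poly(A) tails gave 3 rises and 1 fall among 15 tested, where 31.9% of all tested genes were called. The deadenylase PARN fell by 0.77 ± 0.17 on the log2 scale, and the deadenylase subunit CNOT8, the AU-rich element binder HNRNPD and the exonuclease XRN1 rose by 0.33 ± 0.10, 0.29 ± 0.09 and 0.47 ± 0.16. The HNRNPD change was 0.02 with trends on gene length and GC content removed, and its call and that of XRN1 were lost in 4 and 8 of 14 alternatives. ZFP36, which promotes decay of such messages, had 117 CPM in PM2.5 and 138 CPM in Control on average and was not called. With 1 library left out the rises in this list numbered 0 (without PM2.5 replicate 1) to 5 (without PM2.5 replicate 3), and the falls 4 without Control replicate 3.

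Profiles like those of the called members were found across 12490 tested protein-coding genes outside the lists, by the root mean square distance between mean-centred log2 CPM over the 6 libraries. KIF3C, DVL2 and IFT22 lay nearest to EGR1, at distances of 0.025, 0.030 and 0.031. PXDN, DENND3 and CRIM1 lay nearest to EGR3, at 0.065, 0.065 and 0.069. For IER3 they were C1orf123, TAB1 and PTPN23 (0.029 to 0.044), and for KLF2 PRADC1, GPAA1 and RARB (0.044 to 0.068). For KLF4 they were UBE2E2, RASSF5 and HSD17B7 (0.035 to 0.040), and for KLF6 USP6NL, SAR1A and UBE2H (0.022 to 0.034). Of these genes PRADC1, RARB, HSD17B7 and USP6NL were not called (adjusted p = 0.0797, 0.484, 0.0501 and 0.168, edgeR). Any gene has a nearest 3, so these names are a description.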

How the data were processed

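Total RNA (TRIzol) went into NEBNext Ultra libraries, per the labels' protocols. The authors deposited raw counts per gene for 6 libraries, with gene symbols, coordinates and lengths, per the file headers. GRCh38 is named in the submitters' processing notes, and no source used here gives the aligner or counter. Of the identifiers, all 58735 matched GENCODE release 29 with the same start and end, which was used for exons and GC content.

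The counts went into edgeR 4.0.16 (R 4.3.3) with TMM factors, after filterByExpr (minimum count 10, minimum total 15) had left 14975 genes. PM2.5 was compared with Control by edgeR's quasi-likelihood test, two-sided, with group as the only term and Benjamini-Hochberg adjustment over all tested genes. The SE is derived from the log2 fold change and its F. CPM uses TMM factors, TPM the deposited gene lengths. A count of 0 allows up to 0.0864 to 0.098 CPM, for counting error only. Replicate pairs differed beyond sampling noise (chi-square per degree of freedom 5.85 to 37.2). The fit was tested on simulated data.

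Alternatives were DESeq2 1.42.0, limma-voom (limma 3.58.1), other scalings and filters, a replicate block, removal of trends on gene length and GC content, and each library left out. Members and lists were chosen with earlier results of these data known. Named are all members and their relatives, up to 4 called genes per list by smallest p, the nearest 3 profiles per called member, and HMOX1 and CYP1A1; MKI67 and the uncalled genes SRF, MAX, NAB1, FOS, JUN and ZFP36 were chosen after their values were seen.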

Additional observations from a re-analysis of the deposited data

How the results depend on the processing

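The 10 members were refitted under 14 alternatives, which gave 140 values: 126 kept their direction and their side of the threshold, 12 lost the call, 1 gained it and 1 changed sign. The 12 lost calls were those of KLF2 and KLF6, the gained call was IER2 without Control replicate 3, and the change of sign was MYC at -0.089 without Control replicate 3, in a range of -0.089 to 0.26 with 1 library left out. With 1 library left out, 2 to 4 members were called higher and 2 to 3 lower, the median of the members ran from 0.027 to 0.29, and 1797 to 2600 genes were called higher and 1448 to 2680 lower over the whole table; a group then has 2 libraries. The cause of these shifts was not tested. KLF6 was also lost with no filter on low counts, with the replicate block and with trends on gene length and GC content removed, at adjusted p = 0.0591, 0.0636 and 0.0695 in edgeR. The counts showed no pairing by replicate number: deviations from the group means of same-numbered libraries correlated at -0.005, -0.05 and -0.11. The highest of the 9 pairings, between different numbers, was 0.12. These correlations cannot tell whether same-numbered cultures were prepared together. With the replicate block 1951 genes were called higher and 1826 lower, and among the members 3 higher and 2 lower. Levels below about 10 CPM, as for EGR2 and for EGR3 in Control, rest on about 166 to 264 counts a library and carry the larger errors.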
